A study of Mus musculus with 10 samples.

Results

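The 7 genes described here encode surface proteins through which antigen-presenting cells co-stimulate or restrain T cells. They are the B7 ligands Cd80, Cd86, Icosl, Cd274 and Pdcd1lg2, the receptor Cd40 and the activation marker Cd83. They were taken by name from a table of 23284 genes, and all 7 were among the 12918 genes with enough counts to be tested. They were measured by RNA-seq of polyadenylated RNA in macrophages grown from the bone marrow of C57BL/6J mice, that is, marrow cells differentiated for 6 days in macrophage colony-stimulating factor (M-CSF). Kdo2-lipid A, a part of lipopolysaccharide that activates Toll-like receptor 4 (TLR4), was given at 0.03 nM or 10 nM, and RNA was collected at 1 h or 2 h. The 5 groups were untreated cells, 0.03 nM 1 h, 0.03 nM 2 h, 10 nM 1 h and 10 nM 2 h, with 1 library from each of 2 experiments in every group. The labels put the untreated cells at 0 h, and no untreated cells of 1 h or 2 h were analysed here, so a change against untreated cells cannot be told apart from an effect of time or handling. The labels do not say which animals the cells came from, and p-values measure only the spread between these libraries.

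A T cell that meets its antigen needs a second signal to respond fully, and the B7 family supplies much of it. CD80 and CD86 bind CD28, which activates the T cell, and CTLA-4, which restrains it, while ICOS ligand binds ICOS. PD-L1 and PD-L2, encoded by Cd274 and Pdcd1lg2, bind PD-1 and dampen T cell responses. CD40 receives the signal of CD40 ligand on helper T cells and acts through TRAF adaptors and both arms of NF-kB, and CD83 marks mature dendritic cells and stabilises CD86 and MHC class II at the cell surface. Macrophages raise several of these molecules when TLR4 is engaged, and the comparison asks how their transcripts differ between a low and a high dose of a TLR4 ligand over the first hours.

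Library totals ran from 33179599 to 42167096 counts. Levels are given as CPM, counts scaled to a common total with TMM factors (edgeR's trimmed mean scaling), or, where genes are compared with each other, as CPM per kilobase of exon (RPKM). The 8 macrophage marker symbols name 7 genes, because Emr1 and Adgre1 are the same gene. All 7 were in the table, with a summed level of 23100 to 29360 CPM in every library. Markers of other cells were low. The summed level of the 10 dendritic cell markers was 55.3 and 57.0 CPM at 10 nM 2 h against 42.3 and 36.9 CPM in untreated cells, with Itgax giving 17.8 to 28.8 CPM and Xcr1 at most 0.752 CPM in any library. The B cell markers summed to 23.2 to 31.6 CPM, of which Cd22 made up 16.1 CPM or more, with Pax5 at 0 to 0.0985 CPM. The T and NK cell markers summed to 6.63 and 7.04 CPM at 10 nM 2 h against 0.596 and 0.458 CPM in untreated cells. Lck and Cd247 carried that sum, while Cd3e, Cd3d, Cd3g, Cd2 and Ncr1 each lay at 0 in at least 1 library and at no more than 0.164 CPM in any. Neutrophil markers summed to 37.6 and 30.7 CPM at 10 nM 2 h against 25.6 and 18.4 CPM in untreated cells. There 3 of 7 were called higher (0 under library totals), where 28.6% of all tested genes were called higher and 30.1% lower. Of the T and NK cell markers, 2 of 2 tested were called higher (2 under library totals). Stromal or endothelial markers had 2 of 8 higher (2 higher and 1 lower under library totals). Of 6 tested B cell markers, 0 were higher and 2 lower under both scalings. Of the 7 macrophage markers, 1 was called higher and 1 lower (0 and 6 under library totals). The part of these markers in the results was not tested. Stromal and endothelial markers were higher in experiment 2 in every group, at 61.0 and 104 CPM in experiments 1 and 2 at 10 nM 2 h against 40.9 and 70.4 CPM in untreated cells. In bulk RNA, a change in the number of cells of a type and a change in RNA per cell cannot be told apart.

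Against untreated cells, the 7 genes separated into 3 that responded at the low dose within 1 h or 2 h by several fold (Icosl, Cd40 and Cd83), 3 that moved mainly at 10 nM (Cd80, Cd86 and Cd274), and Pdcd1lg2, which was barely detected. At 0.03 nM 1 h, 2 of 7 rose and 0 fell, where 1.42% of all tested genes were called higher (edgeR quasi-likelihood test, Benjamini-Hochberg adjusted p below 0.05). At 0.03 nM 2 h, 5 of 7 rose, against a background of 6.45%. At 10 nM, 6 of 7 rose at 1 h, where 18.5% of all tested genes were called higher, and 6 of 7 at 2 h, where the share was 28.6%. The median log2 fold change of the 7 genes was 0.44 at 0.03 nM 1 h, 0.54 at 0.03 nM 2 h, 1.62 at 10 nM 1 h and 2.78 at 10 nM 2 h, while the median of all tested genes lay between -0.03 and 0.00. These 4 comparisons share the untreated libraries.

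**Figure D1:**
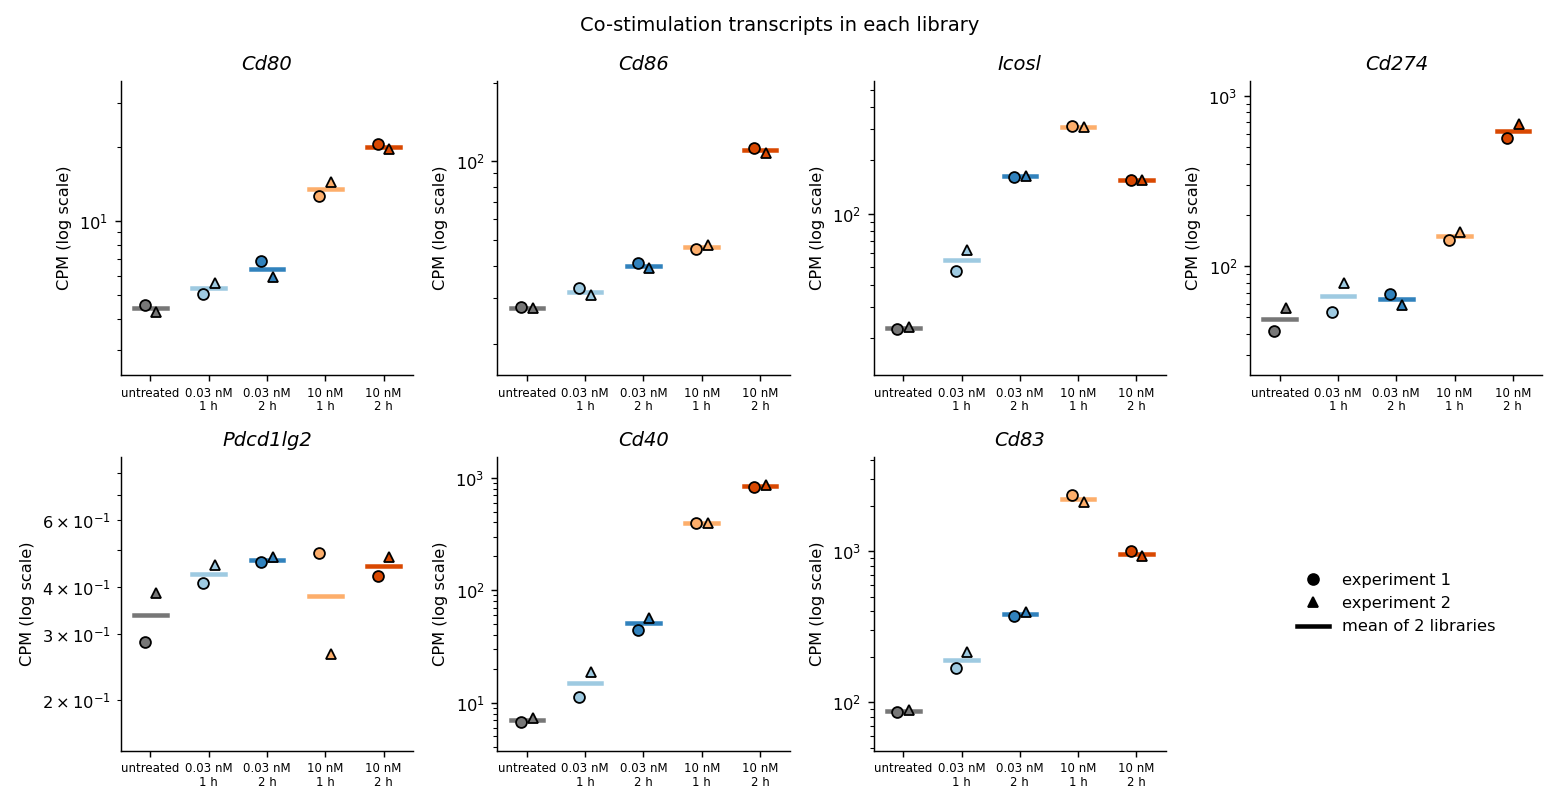
TMM-scaled level (CPM, log axis) of each of the 7 transcripts in the 10 libraries, by group; circles are experiment 1, triangles experiment 2 and bars the mean of the 2 libraries. Icosl and Cd83 are highest at 10 nM 1 h, Cd80, Cd86, Cd274 and Cd40 at 10 nM 2 h, and Pdcd1lg2 stays below 0.5 CPM throughout.

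The CD28 ligand genes Cd80 and Cd86, both on chromosome 16 of the mm9 assembly (38459013 to 38487014 and 36603955 to 36666163), rose at both times at 10 nM. Cd80 had 4.57 and 4.27 CPM in untreated cells, 5.06 and 5.58 CPM at 0.03 nM 1 h, 6.87 and 5.91 CPM at 0.03 nM 2 h, 12.6 and 14.35 CPM at 10 nM 1 h, and 20.5 and 19.5 CPM at 10 nM 2 h (experiment 1 and 2 in each pair). Both libraries of each 10 nM group lay above all 6 other libraries, and those of 10 nM 2 h above those of 10 nM 1 h. The log2 fold change of Cd80 over untreated cells was 1.61 ± 0.13 (SE; edgeR adjusted p = 1.288e-06) at 10 nM 1 h and 2.18 ± 0.13 at 10 nM 2 h, a 4.52-fold rise (adjusted p = 3.993e-08). At 0.03 nM 2 h it was 0.53 ± 0.13 (adjusted p = 0.02757), and this call was lost when either untreated library (adjusted p = 0.1045 and 0.1925) or experiment 1's 0.03 nM 2 h library (0.06595) was left out, and also with library totals in place of TMM (0.05613), in limma-voom (0.05523) and in a fit of only those groups (0.1615). At 0.03 nM 1 h Cd80 did not pass, at a log2 fold change of 0.27 ± 0.14.

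Cd86, the ligand that resting macrophages already carry, was 2.23 to 4.43 times as high as Cd80 per length (RPKM) across the libraries. It stood at 27.7 and 27.5 CPM in untreated cells, 32.8 and 30.8 CPM at 0.03 nM 1 h, 41.0 and 39.1 CPM at 0.03 nM 2 h, 46.4 and 47.8 CPM at 10 nM 1 h, and 112.6 and 107.8 CPM at 10 nM 2 h. No group overlapped another. The log2 fold change over untreated cells was 0.54 ± 0.08 at 0.03 nM 2 h (edgeR adjusted p = 0.0006236), 0.77 ± 0.08 at 10 nM 1 h (adjusted p = 6.246e-06) and 2.00 ± 0.08 at 10 nM 2 h (adjusted p = 8.867e-10), the last a 3.99-fold rise. At 0.03 nM 1 h the value was 0.20 ± 0.08 and was not called (adjusted p = 0.4448). With library totals in place of TMM the value at 10 nM 1 h was 0.40, still called (adjusted p = 0.0009134).

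Icosl (chromosome 10, 77532113 to 77542270 on mm9), which encodes the ligand of ICOS, was the only B7 gene of the 5 that was called at 0.03 nM 1 h. It had 22.4 and 23.0 CPM in untreated cells, 47.9 and 62.7 CPM at 0.03 nM 1 h, 160.7 and 164.2 CPM at 0.03 nM 2 h, 310.3 and 309.6 CPM at 10 nM 1 h, and 155.9 and 155.8 CPM at 10 nM 2 h. The 10 nM 1 h libraries were the highest, and the libraries of 10 nM 2 h lay just below those of 0.03 nM 2 h. It rose 2.43-fold over untreated cells at 0.03 nM 1 h (log2 1.28 ± 0.11, edgeR adjusted p = 5.196e-05) and 7.15-fold at 0.03 nM 2 h (adjusted p = 6.007e-08). At 10 nM it rose 13.6-fold at 1 h (adjusted p = 3.218e-10) and 6.86-fold at 2 h (adjusted p = 1.355e-09).

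The PD-1 ligand genes Cd274 and Pdcd1lg2 lie next to each other on chromosome 19 of mm9, Cd274 at 29441928 to 29462584 and Pdcd1lg2 at 29485409 to 29547417, both on the plus strand, with 22824 bases and no other gene of the table between them. Cd274 had 41.4 and 56.5 CPM in untreated cells, 53.6 and 79.5 CPM at 0.03 nM 1 h, 68.5 and 59.2 CPM at 0.03 nM 2 h, 142.1 and 158.1 CPM at 10 nM 1 h, and 566.3 and 680.0 CPM at 10 nM 2 h. The untreated and 0.03 nM 1 h libraries overlapped, the 0.03 nM 2 h libraries lay inside the range of 0.03 nM 1 h, and both 10 nM groups lay above all of them. At 0.03 nM its log2 fold change over untreated cells was 0.44 ± 0.21 at 1 h and 0.38 ± 0.21 at 2 h, neither called (edgeR adjusted p = 0.7186 and 0.3401). At 10 nM it rose 3.07-fold at 1 h (log2 1.62 ± 0.21, adjusted p = 0.0004153) and 12.7-fold at 2 h (log2 3.67 ± 0.23, adjusted p = 1.591e-06).

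Pdcd1lg2 had 10 to 20 counts in each library. These were 0.286 and 0.386 CPM in untreated cells, 0.410 and 0.455 CPM at 0.03 nM 1 h, 0.465 and 0.478 CPM at 0.03 nM 2 h, 0.492 and 0.264 CPM at 10 nM 1 h, and 0.427 and 0.479 CPM at 10 nM 2 h. The groups were not separated: the 10 nM 1 h libraries held both the highest and the lowest value. At 10 nM 2 h the log2 fold change over untreated cells was 0.43, with a 95% interval of -0.67 to 1.53. A rise or a fall within that interval remained possible. Under library totals the sign turned (-0.12 at 10 nM 2 h and -0.20 at 10 nM 1 h, neither called). None of the 9 comparisons called Pdcd1lg2.

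Promoter sequence was held for 4 of the 7 genes in a RefSeq table of mouse GRCm38.p6: Cd80, Icosl, Cd274 and Pdcd1lg2. Printed here are the neighbours on chromosome 19, of which Cd274 was called at 10 nM and Pdcd1lg2 was not. Icosl, the only one of the B7 genes called at 0.03 nM 1 h, is printed with them. Each sequence is the plus strand, beginning 250 bases before the annotated start. The window of Icosl covers chr10:78069118-78069301, cut at 184 bases where an annotated exon of Icosl itself begins before that start. The bases from there to the start were not searched. The window of Cd274 covers chr19:29367188-29367437 and that of Pdcd1lg2 chr19:29410669-29410918.
Icosl: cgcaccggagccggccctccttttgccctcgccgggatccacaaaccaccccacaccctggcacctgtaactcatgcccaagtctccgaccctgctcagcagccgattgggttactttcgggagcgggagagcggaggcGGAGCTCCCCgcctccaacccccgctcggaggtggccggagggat
Cd274: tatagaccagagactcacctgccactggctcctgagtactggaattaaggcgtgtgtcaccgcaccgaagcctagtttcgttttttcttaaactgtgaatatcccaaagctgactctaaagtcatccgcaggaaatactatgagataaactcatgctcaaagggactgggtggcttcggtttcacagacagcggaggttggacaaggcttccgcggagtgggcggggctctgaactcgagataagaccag
Pdcd1lg2: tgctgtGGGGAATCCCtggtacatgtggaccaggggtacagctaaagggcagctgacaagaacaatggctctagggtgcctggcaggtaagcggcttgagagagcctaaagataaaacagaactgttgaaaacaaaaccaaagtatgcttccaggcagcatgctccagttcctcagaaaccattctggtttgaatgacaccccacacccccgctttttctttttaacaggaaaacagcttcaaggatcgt
Capitals mark matches, on either strand, to the NF-kB-like pattern GGGNNNNNCC. It occurred once in the Icosl window, 111 bases before the start, and once in the Pdcd1lg2 window, 244 bases before the start. It was not found in the Cd274 window, and the Cd80 window held 2 matches. The pattern is common, being present in 45.8% of all 32851 windows of 250 bases and in 34.1% of windows cut to 184 bases. The AP-1 pattern TGANTCA, present in 6.75% of windows, occurred once in the Cd80 window, next to but not overlapping a match to the first pattern, and in none of the other 3. The interferon-response pattern GAAANNGAAA (2.98% of windows) and the STAT pattern TTCNNNGAA (7.02%) were not found in the 4 windows. These 3 shares are for windows of 250 bases. In windows cut to 184 bases, as for Icosl, they were 5.03% for AP-1, 2.26% for the interferon-response pattern and 5.34% for the STAT pattern. These are matches of letters in the given windows and do not show binding.

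Cd40 (chromosome 2, 164881136 to 164897154 on mm9), the receptor for CD40 ligand, had the largest fold changes of the 7 at 10 nM. It had 6.74 and 7.26 CPM in untreated cells, 11.3 and 18.9 CPM at 0.03 nM 1 h, 44.4 and 57.1 CPM at 0.03 nM 2 h, 398.5 and 392.2 CPM at 10 nM 1 h, and 832.3 and 854.3 CPM at 10 nM 2 h. No group overlapped another, and the 0.03 nM 1 h libraries were the most unequal pair. At 10 nM it rose 56.5-fold over untreated cells at 1 h (edgeR adjusted p = 2.221e-07) and 120-fold at 2 h (adjusted p = 4.185e-08), which placed it 92nd and 90th of the 12918 tested genes by log2 fold change. At 0.03 nM 2 h it rose 7.25-fold (log2 2.86 ± 0.23, adjusted p = 6.734e-05). At 0.03 nM 1 h the log2 fold change of 1.10 ± 0.22 was not called (adjusted p = 0.06532). It was called with a replicate block for the experiment (1.09, adjusted p = 0.01198), in DESeq2 (1.606e-07), with no robust estimation (0.02345) and when experiment 1's 0.03 nM 1 h library was left out (1.43, adjusted p = 0.000135). The log2 fold change was 0.68 when experiment 2's library of that group was left out (edgeR adjusted p = 0.07257), and the adjusted p was 0.4991 when experiment 1's untreated library was left out.

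Cd83 (chromosome 13, 43880476 to 43898501 on mm9), whose product marks activated antigen-presenting cells, was the most abundant of the 7 per length in untreated cells and remained so in every group except 10 nM 2 h. It had 86.4 and 89.7 CPM in untreated cells, 169 and 214.6 CPM at 0.03 nM 1 h, 373.7 and 393.7 CPM at 0.03 nM 2 h, 2342 and 2111 CPM at 10 nM 1 h, and 998.5 and 926.4 CPM at 10 nM 2 h. The groups did not overlap, and both libraries of 10 nM 1 h were above both of 10 nM 2 h. It rose 2.18-fold over untreated cells at 0.03 nM 1 h (edgeR adjusted p = 0.0001293) and 4.36-fold at 0.03 nM 2 h (adjusted p = 2.162e-07). At 10 nM it rose 25.3-fold at 1 h (adjusted p = 1.155e-10) and 10.9-fold at 2 h (adjusted p = 3.324e-10).

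**Figure D2:**
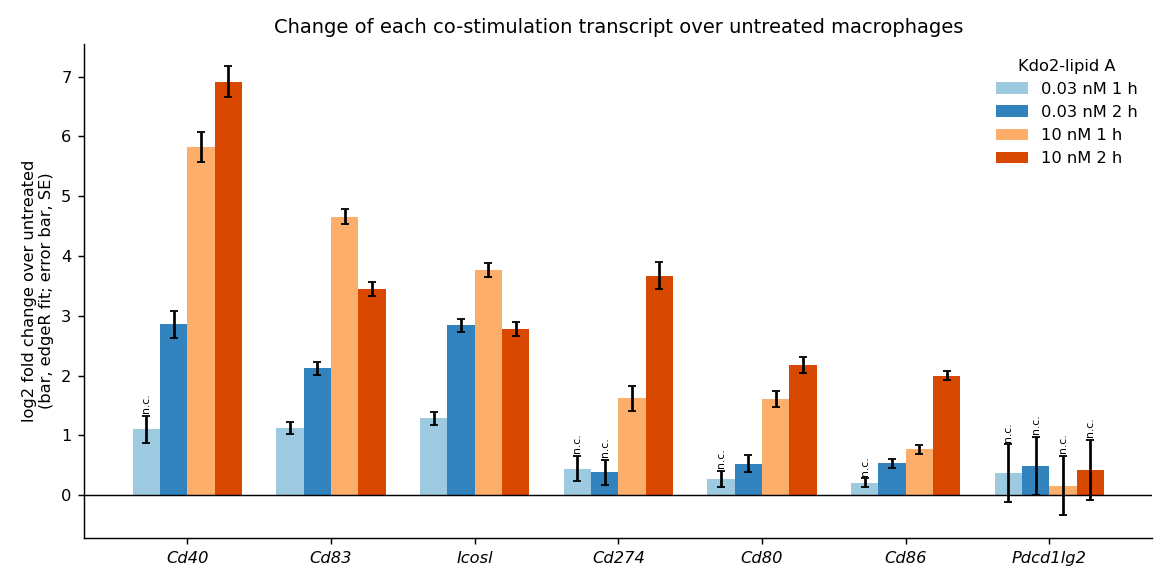
Log2 fold change over untreated cells (bar, edgeR estimate; error bar, SE) of each transcript in the 4 stimulated groups, ordered by gene; n.c. marks changes that were not called at an adjusted p below 0.05. Cd40 reaches 6.91 at 10 nM 2 h, Cd83 and Icosl are larger at 10 nM 1 h than at 10 nM 2 h, and Pdcd1lg2 is not called in any group.

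Both doses could be compared at the same time after addition, without the untreated cells. At 1 h, 10 nM gave higher levels than 0.03 nM for 6 of 7 genes, where 18.0% of all tested genes were called higher, with a median log2 difference of 1.34 over the 7 genes and -0.01 over all genes. The differences were 4.71 ± 0.23 for Cd40, 3.54 ± 0.12 for Cd83, 2.49 ± 0.11 for Icosl, 1.34 ± 0.13 for Cd80, 1.17 ± 0.21 for Cd274 and 0.57 ± 0.08 for Cd86 (edgeR adjusted p of 0.002645 or less). Cd274 was not called in a fit of those groups alone (adjusted p = 0.07428), and the value of Cd86 was 0.21 under library totals (adjusted p = 0.0367). Pdcd1lg2 stood at -0.20 ± 0.49.

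At 2 h, 5 of 7 genes were higher at 10 nM than at 0.03 nM, against 25.6% of all tested genes, with medians of 1.46 for the 7 genes and -0.03 for all. The log2 differences were 4.05 ± 0.22 for Cd40, 3.29 ± 0.22 for Cd274, 1.65 ± 0.13 for Cd80, 1.46 ± 0.08 for Cd86 and 1.33 ± 0.11 for Cd83 (edgeR adjusted p of 4.077e-06 or less). Cd83 stood at 0.84 under library totals, still called (2.045e-05). Icosl had no called difference between the doses at 2 h: 155.9 and 155.8 CPM at 10 nM against 160.7 and 164.2 CPM at 0.03 nM, a log2 difference of -0.06 with a 95% interval of -0.29 to 0.17 (adjusted p = 0.6622). Under library totals that difference was -0.55 and was called (adjusted p = 0.0004998), where the median of all genes moved by -0.49.

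Over time, the 2 doses differed in which genes kept rising. At 10 nM, 4 of 7 genes were higher at 2 h than at 1 h, where 21.3% of all tested genes were called higher, and 2 of 7 were lower, where 21.5% were called lower. Cd274 gained most, with 566.3 and 680.0 CPM at 2 h against 142.1 and 158.1 CPM at 1 h (log2 2.05 ± 0.21, edgeR adjusted p = 9.611e-05). Cd86 followed at 1.23 ± 0.07, Cd40 at 1.09 ± 0.20 and Cd80 at 0.57 ± 0.12, or 0.38 for Cd80 under library totals, still called. Cd83 and Icosl fell: Cd83 had 998.5 and 926.4 CPM at 2 h against 2342 and 2111 CPM at 1 h (log2 -1.21 ± 0.11, adjusted p = 3.581e-06), and Icosl had 155.9 and 155.8 CPM at 2 h against 310.3 and 309.6 CPM at 1 h (log2 -0.99 ± 0.10, adjusted p = 1.419e-05). Both still lay above untreated cells at 2 h.

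At 0.03 nM, 4 of 7 genes were higher at 2 h than at 1 h and 0 were lower, where 3.51% of all tested genes were called higher. They were Cd40 (log2 1.75 ± 0.21, edgeR adjusted p = 0.001995), Icosl (1.55 ± 0.11, adjusted p = 1.311e-05), Cd83 (1.00 ± 0.11, adjusted p = 0.0002029) and Cd86 (0.33 ± 0.08, adjusted p = 0.02484). Cd40 was not called when experiment 2's 0.03 nM 2 h library was left out (adjusted p = 0.06499). Cd86 was not called without any 1 of 6 libraries, namely both untreated libraries, both 0.03 nM 1 h libraries and both 10 nM 1 h libraries (adjusted p of 0.05329 to 0.1751), under library totals (0.07369) or in a fit of those groups alone (0.315). Cd80 (0.26 ± 0.13) and Cd274 (-0.06 ± 0.21) did not pass.

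The interaction, which is the change at 2 h over 1 h at 10 nM minus the same change at 0.03 nM, tested that contrast between doses. It was called upward for 2 of 7 genes, against 10.4% of all tested genes, and downward for 2 of 7, against 11.6%. Cd274 had a value of 2.11 ± 0.30 on the log2 scale (edgeR adjusted p = 0.00139) and Cd86 of 0.90 ± 0.10 (adjusted p = 0.0001049). Icosl had -2.55 ± 0.15 (adjusted p = 1.303e-06) and Cd83 had -2.21 ± 0.15 (adjusted p = 2.816e-06): both gained with time at 0.03 nM and lost with time at 10 nM. Cd40 had -0.66 ± 0.28 and was not called (adjusted p = 0.1471), but it was in DESeq2 (adjusted p = 0.0365) and, at -1.08, when experiment 2's 0.03 nM 1 h library was left out (adjusted p = 0.001764). Cd80 had 0.31 ± 0.18, with a 95% interval of -0.09 to 0.70.

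**Figure D3:**
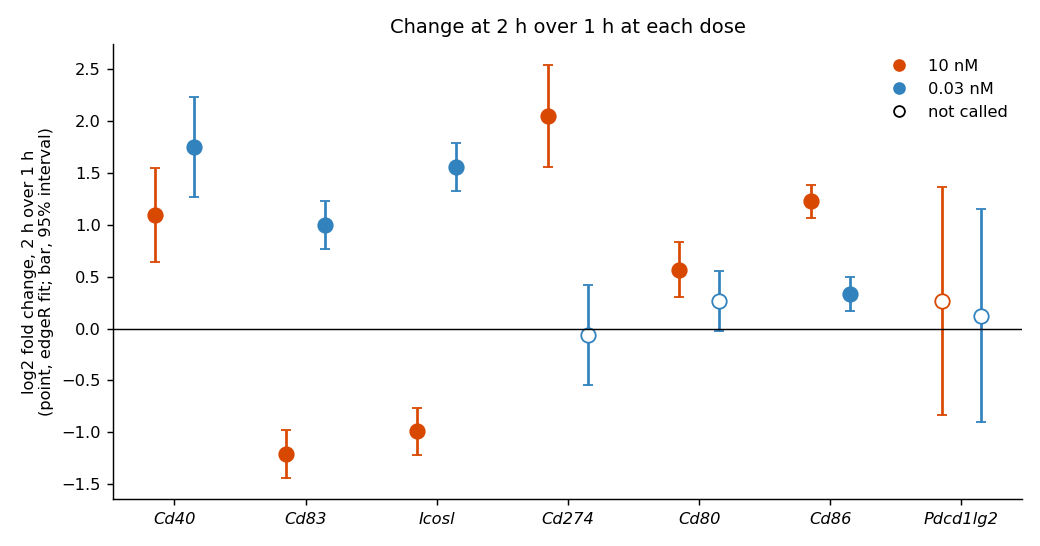
Log2 change at 2 h over 1 h of each transcript at 10 nM (orange) and 0.03 nM (blue); points are edgeR estimates, bars 95% intervals, and open points were not called. Cd83 and Icosl lie at -1.21 and -0.99 at 10 nM and at 1.00 and 1.55 at 0.03 nM, while Cd274 lies at 2.05 at 10 nM and at -0.06 at 0.03 nM.

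The scaling of the libraries bears on all values at 10 nM. TMM factors were 0.775 to 0.897 in the 10 nM libraries, against 1.09 to 1.153 in the others. With library totals in place of TMM, the median of all tested genes shifted by -0.37 at 10 nM 1 h and by -0.56 at 10 nM 2 h against untreated cells, and by -0.36 and -0.49 at 1 h and 2 h for 10 nM against 0.03 nM. Upward calls made up 15.9% of all called genes at 10 nM 1 h under library totals and 50.3% under TMM, and at 10 nM 2 h 19.4% and 48.8%. For 10 nM against 0.03 nM the shares were 15.5% and 50.9% at 1 h and 18.4% and 48.5% at 2 h. For 2 h against 1 h they were 29.2% and 49.7% at 10 nM and 54.1% and 68.8% at 0.03 nM, for 0.03 nM 2 h against untreated cells 48.4% and 65.7%, and for the interaction 30.9% and 47.4%. The 6 members called at 10 nM 1 h and at 10 nM 2 h against untreated cells kept their direction and call under library totals, with log2 fold changes at 10 nM 2 h of 6.36 for Cd40, 3.11 for Cd274, 2.89 for Cd83, 2.22 for Icosl, 1.62 for Cd80 and 1.44 for Cd86.

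Per length, the make-up of the 7 transcripts shifted with dose and time. In untreated cells the order of mean RPKM was Cd83 at 41.1, Cd274 at 13.5, Cd86 at 10.9, Icosl at 8.27, Cd40 at 3.92, Cd80 at 2.60 and Pdcd1lg2 at 0.0983. Cd274 (SD 2.94, n = 2) and Cd86 differed by less than that spread, though the ratio of Cd274 to Cd86 within each untreated library was 1.04 and 1.43. At 0.03 nM 1 h the order was Cd83 at 89.4, Icosl at 20.1, Cd274 at 18.3, Cd86 at 12.5, Cd40 at 8.44 and Cd80 at 3.13 RPKM, with Icosl and Cd274 overlapping between libraries. Within each library Icosl was above Cd274, at 17.4 against 14.7 RPKM in experiment 1 and 22.8 against 21.9 RPKM in experiment 2. At 0.03 nM 2 h Icosl at 59.1 RPKM and Cd40 at 28.4 RPKM stood next below Cd83 at 178.9 RPKM, and Cd274 at 17.6 RPKM lay close to Cd86 at 15.8 RPKM.

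At 10 nM 1 h Cd83 reached 1038 RPKM and Cd40 221.6 RPKM, followed by Icosl at 112.8 RPKM and Cd274 at 41.25 RPKM. Cd83 alone then made up 73.1% and 70.9% of the summed RPKM of the 7 genes in experiments 1 and 2. At 10 nM 2 h Cd40 at 472.7 RPKM and Cd83 at 448.7 RPKM stood together, the lower Cd40 library at 466.5 RPKM and the higher Cd83 library at 465.5 RPKM, followed by Cd274 at 171.3 RPKM, Icosl at 56.7 RPKM, Cd86 at 43.4 RPKM and Cd80 at 11.8 RPKM. The share of Cd83 was then 38.8% and 35.7%, against 52.1% and 50.2% in untreated cells, and the share of Cd40 was 38.8% and 39.6%, against 4.89% in both untreated libraries. The ratio of Cd274 to Cd86, a PD-1 ligand over a CD28 ligand, was 3.51 and 4.40 in RPKM at 10 nM 2 h against 1.04 and 1.43 in untreated cells. The ratio of Cd86 to Cd80 was 2.46 and 2.23 at 10 nM 1 h, the lowest of the 5 groups, against 4.06 and 4.32 in untreated cells. Levels describe RNA only, and surface protein was not measured in the tables used here.

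**Figure D4:**
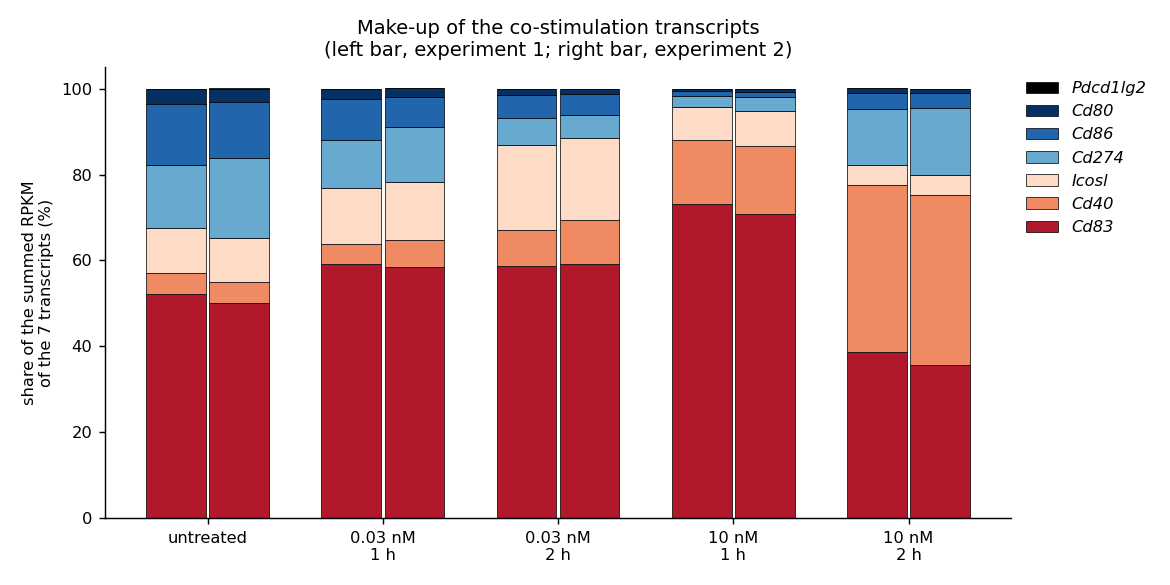
Share of each transcript in the summed RPKM of the 7 genes (percent), 2 bars per group for experiments 1 and 2. Cd83 takes 73.1% and 70.9% at 10 nM 1 h, and Cd40 takes 38.8% and 39.6% at 10 nM 2 h against 4.89% in each untreated library.

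Of the 7 genes, 5 were higher in experiment 2 in untreated cells, 6 at 0.03 nM 1 h, 4 at 0.03 nM 2 h, 3 at 10 nM 1 h and 3 at 10 nM 2 h. The median log2 difference over all tested genes lay between -0.014 and 0.017 in the 5 groups. The largest log2 differences (experiment 2 minus experiment 1) among the 6 well-counted genes were 0.74 for Cd40 and 0.57 for Cd274 at 0.03 nM 1 h, where the SD over all tested genes was 0.387.

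For each member the 3 tested genes with the most similar profile over the 10 libraries were taken by Pearson r of log2 CPM, among 3104 genes that varied. The libraries fall into 5 groups of 2, so these r values mainly describe group means. By Spearman rho the 3 closest genes were all different ones for Cd40, Cd83, Icosl, Cd86 and Pdcd1lg2. Only Ccnd2 was kept for Cd274, and Cish and Srebf2 for Cd80. Cd40 was closest to the chemokine gene Cxcl3, Tnfaip2 and the BCL2-family gene Bcl2a1d (r of 0.998 for each), the last having near-identical copies that make its counts uncertain. Cd83 was closest to Zfand5 (0.996), the semaphorin gene Sema6d (0.992) and Birc3 (0.992), and Icosl to the autophagy gene Vmp1 (0.993), the small GTPase gene Rab20 (0.983) and the zinc transporter gene Slc39a13 (0.983). These 6 genes all had a larger log2 fold change over untreated cells at 10 nM 1 h than at 10 nM 2 h, for example 3.56 and 2.76 for Rab20. That pattern follows from choosing the genes by r, as do the fold changes of the genes closest to Cd274. Cd274 was closest to the cyclin gene Ccnd2, Gca and the TNF family ligand gene Tnfsf15 (each 0.996), which had log2 fold changes of 2.18, 1.36 and 2.36 at 10 nM 1 h and 4.81, 2.79 and 5.28 at 10 nM 2 h. Cd80 was closest to the cytokine signalling inhibitor gene Cish (0.997), Srebf2 (0.996) and the ubiquitin ligase gene Peli1 (0.9955), and Cd86 to Vta1 (0.997), Poldip3 (0.995) and Snn (0.994). For Pdcd1lg2 no r exceeded 0.793 (Tmem26; then Zfp456 and Creb3l1). Within the 7, r was 0.979 for Cd40 and Cd80, 0.967 for Cd274 and Cd86, 0.946 for Cd83 and Icosl, and 0.555 for Cd274 and Icosl.

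Other co-stimulation and presentation genes were counted against the same background as the members at 10 nM 2 h, where 28.6% of all tested genes were called higher and 30.1% lower. Under library totals 1903 of the 12918 genes were called higher there and 7898 lower. Of the TNF superfamily ligands, 5 of 6 tested genes rose at 10 nM 2 h against untreated cells and 0 fell, with a median log2 fold change of 3.79 (4 rose under library totals). Tnfsf9, which encodes the ligand of 4-1BB, had 772.6 and 775.6 CPM at 10 nM 2 h against 2.00 and 2.19 CPM in untreated cells, a 368.6-fold rise (edgeR adjusted p = 1.193e-11), and like Cd83 and Icosl it was higher at 10 nM 1 h, at 1661 and 1555 CPM. Tnfsf4, encoding OX40 ligand, had 51.6 and 51.8 CPM at 10 nM 2 h against 0.596 and 0.169 CPM in untreated cells (log2 7.07 ± 0.26), and Tnfsf15 had 82.8 and 106 CPM against 1.98 and 2.89 CPM (5.28 ± 0.24). Between doses at 2 h, Tnfsf9 differed by 5.37 ± 0.13 and Tnfsf4 by 5.90 ± 0.24, and at 1 h by 6.42 ± 0.14 and 6.38 ± 0.28.

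Of the other B7 and butyrophilin genes, 5 of 8 were tested, 1 rose and 1 fell at 10 nM 2 h against untreated cells (median -0.06; 1 and 3 under library totals). The inhibitory B7 relative VISTA, listed as 4632428N05Rik, was abundant and fell, with 434.7 and 446.0 CPM at 10 nM 2 h against 691.4 and 692.9 CPM in untreated cells (log2 -0.65 ± 0.07, edgeR adjusted p = 4.396e-06), and it was lower at 10 nM than at 0.03 nM at 2 h (-0.30 ± 0.07). Btla, an inhibitory receptor, rose at 3.05 and 4.27 CPM against 1.45 and 0.747 CPM (1.73 ± 0.45), a call lost when experiment 2's untreated library was left out (adjusted p = 0.05844). Its difference between doses at 2 h (1.49 ± 0.45) was called, but not without either library of experiment 2 in those groups or under library totals (adjusted p up to 0.1017).

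Of the nectin, SLAM and galectin ligands and partners, 14 of 18 rose and 2 fell at 10 nM 2 h against untreated cells (median 1.12; 9 and 5 under library totals). The poliovirus receptor gene Pvr, a ligand of DNAM-1 and TIGIT, rose 17.5-fold (edgeR adjusted p = 6.107e-11), its relative Pvrl2 5.53-fold and Slamf7 7.28-fold. Pvr was higher at 10 nM than at 0.03 nM by 4.37 ± 0.11 at 1 h and 3.61 ± 0.11 at 2 h, and Slamf7 by 1.99 ± 0.13 and 2.70 ± 0.13. Of 11 genes of CD40 signalling, 9 rose and 2 fell (median 1.95; 9 and 2 under library totals). The rises included Tnip1, which encodes an inhibitor of NF-kB activation (3.73 ± 0.09), the non-canonical NF-kB subunit gene Nfkb2 (3.33 ± 0.12) and the ubiquitin ligase gene Birc2 (1.95 ± 0.07). Tnip1 was higher at 10 nM than at 0.03 nM by 2.69 ± 0.09 at 1 h and 1.95 ± 0.09 at 2 h, and Birc2 by 1.503 ± 0.07 and 1.26 ± 0.07. The 2 that fell were Map3k14, which encodes the kinase NIK of the non-canonical NF-kB arm (-1.06 ± 0.10), and the adaptor gene Traf5 (-0.32 ± 0.12), both named after their values were seen.

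Of 13 MHC class II genes, 8 rose and 2 fell at 10 nM 2 h against untreated cells (median 0.73; 4 and 6 under library totals). The 2 that fell, named after their values were seen, were Ciita, the class II transactivator (-1.38 ± 0.16, edgeR adjusted p = 2.735e-05), and March8 (-0.37 ± 0.10, adjusted p = 0.006228). H2-Ab1, H2-Eb1 and H2-Aa, which encode class II chains, stood at 0.87 ± 0.10, 0.83 ± 0.09 and 0.73 ± 0.08, or 0.31, 0.28 and 0.17 under library totals, where H2-Aa was not called (edgeR adjusted p = 0.06969). Cd74, the invariant chain, was higher at 10 nM than at 0.03 nM by 0.60 ± 0.09 at 1 h and 0.54 ± 0.09 at 2 h, and at 2 h it was not called under library totals (0.05). H2-Eb1 differed by 0.55 ± 0.09 at 1 h and H2-DMb1 by 0.57 ± 0.10 at 2 h, neither called under library totals. Of 12 MHC class I genes, 11 rose and 0 fell at 10 nM 2 h against untreated cells (median 0.95; 7 and 2 under library totals), among them the peptide transporter gene Tap2 (1.28 ± 0.14), the tapasin gene Tapbp (1.13 ± 0.10) and B2m (0.63 ± 0.09, or 0.075 and not called under library totals). Between doses at 2 h Tap2 differed by 1.08 ± 0.14 and Tapbp by 0.90 ± 0.10. At 1 h only H2-K1 (0.45 ± 0.14) and Psmb9 (-0.47 ± 0.14) of the list were called between doses, and single libraries ended both calls. H2-K1 was lost when either 10 nM 1 h library, experiment 1's 0.03 nM 1 h library or experiment 2's 0.03 nM 2 h library was left out, under library totals and in a fit of those groups alone (adjusted p up to 0.5804), and Psmb9 when either 10 nM 1 h library or experiment 2's 0.03 nM 1 h library was left out (up to 0.1846). MHC genes share sequence, so counts of single members are uncertain.

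Genes for the T cell receptors of these ligands were low apart from Cd28. Of 9 genes 5 were tested, 1 rose and 1 fell at 10 nM 2 h against untreated cells (median -0.46; 1 and 2 under library totals). Cd28 itself was measured at 51.9 and 51.5 CPM at 10 nM 2 h against 152.6 and 144.5 CPM in untreated cells (log2 -1.52 ± 0.15, edgeR adjusted p = 5.161e-06), while the T cell markers Cd3e, Cd3d and Cd3g were at or near 0 in every library. Tnfrsf9, the receptor of the Tnfsf9 product, had 3.64 and 4.41 CPM at 10 nM 2 h against 0.0715 and 0.0482 CPM in untreated cells (5.99 ± 0.56). Between doses at 2 h, Tnfrsf9 was higher by 3.71 ± 0.44, Cd28 fell by 0.67, and Tnfrsf18, at no more than 0.370 CPM in any library, was called lower, a call made in 9 of 19 alternatives. Of the 10 dendritic cell markers, 5 were called higher and 0 lower at 10 nM 2 h against untreated cells (2 and 2 under library totals), and 1 was called higher at 10 nM 1 h. Their part in these results was not tested.

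**Figure D5:**
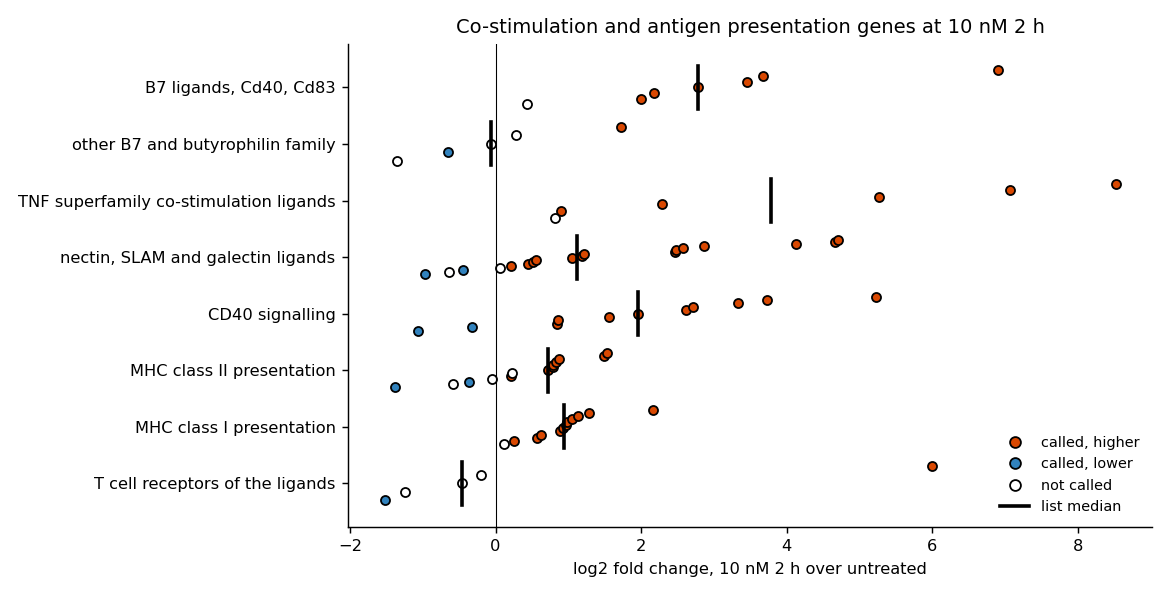
Log2 fold change at 10 nM 2 h over untreated cells of the 7 members (top line) and of the genes of 7 related lists; each point is a gene, orange called higher, blue called lower, open not called, and the black bar is the list median. TNF superfamily ligands have a median of 3.79, CD40 signalling 1.95 and the MHC lists 0.73 and 0.95.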

How the data were processed

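The deposited table holds the authors' raw read counts over the exons of each gene, not normalised, per the file headers. A second deposited table holds the authors' regularised log2 (rlog) values. Tools named in the submitters' processing notes, with no role given, are featureCounts 1.4.5-p1 (Subread), TopHat2 2.0.11, DESeq2 and bcl2fastq 2.15.0.4, and the build named is mm9. The strand setting is not given in the sources used here. No other gene of the table shares exon bases with a member.

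Counts were analysed in edgeR 4.0.16 (R 4.3.3): filterByExpr on the 5 groups, TMM scaling, and one robust quasi-likelihood model with a mean per group over all 10 libraries (5 residual degrees of freedom). A gene was called where its p, adjusted by Benjamini-Hochberg over 12918 genes, was below 0.05 (two-sided), in each of 9 comparisons, and 95% intervals come from the same fit. Each SE was back-calculated as the absolute log2 fold change over the square root of the F statistic. The intervals use that SE with t quantiles. RPKM uses the exonic length in the table. Likeness used log2 CPM with a prior count of 2 and genes with a mean and a range of group means of at least 1. No 2 libraries held identical values, and counts of the libraries of a group differed by more than sampling noise (chi-square per degree of freedom of 10.6 to 39.3).

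The experiment number in the labels pairs libraries across groups. Deviations of same-numbered libraries from their group means correlated at 0.0397 to 0.236 (7 of 10 pairs of groups above 0.1). The fit has no block, and a replicate block is an alternative. The others were DESeq2 size factors, library totals, no filter, a filter of 1 CPM in 2 libraries, DESeq2 1.42.0, limma-voom and limma on the rlog values (limma 3.58.1), only the groups compared, no robust estimation, and each library left out.

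Named genes are the 7 members, the 3 genes most like each, and from each list up to 3 called genes by smallest p at 10 nM 2 h against untreated cells and up to 2 between doses at each time. Members and lists were chosen with earlier results of these data known.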

Additional observations from a re-analysis of the deposited data

Results flagged for a closer look

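For 4 of the 7 genes the change at 2 h over 1 h differed between 10 nM and 0.03 nM in a test of the difference itself (edgeR interaction, Benjamini-Hochberg adjustment over all genes tested). Of all tested genes, 22% were called for this interaction in either direction. The interaction was 2.11 on the log2 scale for Cd274 and 0.896 for Cd86, which gained more with time at 10 nM than at 0.03 nM. It was -2.55 for Icosl and -2.21 for Cd83, which were lower at 2 h than at 1 h at 10 nM and higher at 2 h than at 1 h at 0.03 nM. The same 4 calls were made in each of the 20 alternatives. With 2 libraries a group, no group was large enough to test a single library against the others.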

How the results depend on the processing

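Of the member results called, 430 of 440 values with 1 library left out and 434 of 440 under the other alternatives kept direction and call. The number of members called was within 1.5 times of the reported one throughout. The replicate block for the experiment moved the number of members called at 0.03 nM 1 h to 3, by adding Cd40 (adjusted p = 0.01198), and changed no other member's call. Signs turned only for values that were not called: under library totals, Pdcd1lg2 against untreated cells at 10 nM 1 h (-0.205) and 10 nM 2 h (-0.125). With 1 library left out, Pdcd1lg2 ranged from -0.339 to 0.546 at 10 nM 1 h against untreated cells, -0.700 to 0.185 and -0.144 to 0.019 for 10 nM against 0.03 nM at 1 h and 2 h, -0.121 to 0.765 for 2 h against 1 h at 10 nM, and -0.246 to 0.640 for the interaction, and Cd274 ranged from -0.316 to 0.255 for 2 h against 1 h at 0.03 nM. The cause was not tested.

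Counts over all genes, the background of the members' counts, moved more. The 198 genes called at 0.03 nM 1 h became 78 and 114 without the untreated libraries of experiments 1 and 2 and 113 without experiment 2's 0.03 nM 1 h library. The 1268 at 0.03 nM 2 h became 668 and 650 without those untreated libraries, 655 with only the groups compared and 3128 without experiment 1's 0.03 nM 2 h library. The 660 for 2 h against 1 h at 0.03 nM became 2833 without that library, 285 without experiment 1's 0.03 nM 1 h library and 198 with only the groups compared. The interaction gave 2846, or 1897 without experiment 1's 10 nM 1 h library. Library totals gave 8035 in place of 4761 at 10 nM 1 h against untreated cells and 7789 in place of 4558 between doses at 1 h. The rlog values compress low counts by construction, but lower values were not limited to low counts. The log2 fold change of Cd40 at 0.03 nM 2 h was 1.55 on the rlog values, still called. Its counts were 1622 and 2386 there, against 283 and 301 in untreated cells. Over the alternatives other than leaving 1 library out, the lowest values at 10 nM 1 h were 3.16 for Cd83 and 2.51 for Icosl. The main fit gave 4.66 and 3.77, and both calls were kept. Pdcd1lg2 had 10 to 20 counts in each library. The effect of depth and of group size on the other members was not tested.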
